A study of Penicillium oxalicum with 6 samples.

Results

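The genes described here encode membrane transporters of the major facilitator superfamily in the filamentous fungus *Penicillium oxalicum*. There are 47 of them among the 1114 genes that the study listed as differentially expressed between the mutant Δ*PoxMKK1* and its control strain Δ*PoxKu70*, out of 9834 genes measured. A group of 22 carries at least 1 of the InterPro entries for sugar transporters (sugar/inositol transporter, major facilitator sugar transporter-like, or sugar transporter conserved site) and is called the sugar transporter genes. The other 25 carry the general major facilitator entry without any of these sugar transporter entries and are called the MFS-only genes. *PoxCdtC*, *PoxCdtD* and *PoxRCO-3*, which hold sugar transporter entries as well, were left out and are given only as a reference. The members were chosen by the study's own criteria on these same libraries, a log2 ratio of mean FPKM of at least 1 in size and a probability, so the direction and size of each gene's change are given as a description, without a test. Genes outside the list were not analysed here as transporters.

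Major facilitator proteins are carriers formed of a single chain that spans the membrane many times and moves small solutes down a gradient or together with ions. In fungi that grow on cellulose they bring in the sugars released by secreted cellulases, such as glucose and cellodextrins, and in *Neurospora crassa* and other fungi uptake of cellodextrins is part of how cellulase genes are switched on. Some sugar transporter homologues do not carry sugar and act as sensors of it. The wider superfamily also holds carriers of nitrate, phosphate, carboxylic acids and vitamins, and exporters of drugs and secondary metabolites. The files give no substrate for any of the 47 genes, and the InterPro entries alone do not give one.

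Messenger RNA was sequenced from 3 libraries of each strain, named F, S and T by their labels. Both strains descend from the wild-type HP7-1 with the *Ku70* homologue *POX01583* replaced by a hygromycin resistance gene, and in Δ*PoxMKK1* the kinase gene *PoxMKK1* (*POX07948*), a homologue of the yeast MAP kinase kinase gene *Ste7*, was further replaced by a G418 resistance gene. Mycelia of both were grown on glucose, moved to 2% Avicel, a microcrystalline cellulose, and collected after 24 h in shaken culture. Each gene has an expected count, which is an estimated read number, and an FPKM value, which is a level scaled by transcript length and sequencing depth. The study calls the 3 libraries of a strain biological repeats, and the labels do not say whether they came from separate cultures, so part of their spread may be technical. Cultures were sequenced in bulk, so fewer cells of a kind and less RNA per cell cannot be told apart.

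Depth was alike, with total expected counts from 13687087 to 14042791 per library. Values of a strain's libraries are given throughout in the order F, S, T. The deleted gene *PoxMKK1* kept 2, 1 and 0 counts in the mutant, against 656, 592 and 753 in the control. *POX01583*, described as replaced in both strains, had between 942 and 1365 counts in all 6 libraries, so it does not serve as a check of the background. The actin gene *POX09248* stood at 29.0 FPKM ± 2.43 (SD, n = 3) in Δ*PoxMKK1* and 29.1 ± 1.38 in Δ*PoxKu70*.

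A gene was called when edgeR's quasi-likelihood test gave an adjusted p below 0.05 and the log2 fold change was at least 1 in size. Over the 8749 genes tested, 19.8% were called, 10.8% as raised and 8.93% as lowered in Δ*PoxMKK1*. All 22 sugar transporter genes were called, 12 raised and 10 lowered, and so were 24 of the 25 MFS-only genes, 16 raised and 8 lowered. The FPKM ranges of the strains did not overlap for any of the 47 genes, with the mutant above the control for 29 and below it for 18. Such ranges were held by 59.0% of the tested genes, with the mutant above for 35.3% and below for 23.6%. The rule chose genes for this contrast, so nothing is read from these counts. All 47 passed the filter on low counts and none had a fractional count in any library. The members closest to the listing's fold limit were *POX03617* and *POX06915*, at log2 ratios of mean FPKM of -1.002 and -1.07.

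Among the sugar transporter genes higher in the mutant, *POX01566* reached the highest level. Its FPKM was 997.5, 791.2 and 747.7 in the mutant and 4.67, 1.31 and 7.18 in the control. The difference was 7.54 on the log2 scale (SE 0.62), or 185-fold. In the control it was a weakly expressed gene at rank 7732 of all genes, and in the mutant it stood at rank 212. It was the only sugar transporter gene with the sugar/inositol and sugar transporter-like entries but without the conserved-site entry.

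*POX00960* was hardly detected in the control. The mutant libraries held 1291, 1341 and 1052 counts of it and the control libraries 0, 0 and 1, or 61.7, 64.4 and 50.9 FPKM against 0, 0 and 0.05. The ratio of the summed counts scaled for depth was 3547, and its exact 95% (Clopper-Pearson) limits of 636.1 and 140118 reflect counting error alone. Without replicate T of Δ*PoxKu70*, the one library with a read, the level was at least 785-fold higher in the mutant, with the floor set at 3 counts over both remaining control libraries.

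A further set went from low to intermediate levels. *POX08656* was at 54.0, 55.6 and 44.0 FPKM in the mutant and at 0.70, 0.87 and 0.76 in the control, a log2 fold change of 5.98 (SE 0.16). *POX07227* was at 35.4, 62.9 and 57.2 FPKM in the mutant and at 1.33, 1.47 and 2.82 in the control, with a log2 fold change of 4.73 (SE 0.34). *POX09471* was at 134.6, 123.3 and 115.7 FPKM in the mutant and at 6.76, 2.13 and 13.1 in the control, with a log2 fold change of 4.04 (SE 0.55) that became 4.71 without replicate T of Δ*PoxKu70*. *POX08656* and *POX09471* are the only members that pair the sugar transporter conserved site with the general major facilitator entry. The control values of *POX09471* spread widely, with replicate S lowest and replicate T highest, whereas those of *POX08656* lay close together.

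*POX01649* had 93.1, 88.0 and 58.2 FPKM in the mutant and 6.15, 7.45 and 5.41 in the control, with a log2 fold change of 3.59 (SE 0.23). *POX04369* varied more between libraries, at 16.3, 27.8 and 38.6 FPKM in the mutant and 1.25, 0.83 and 6.71 in the control, and its log2 fold change of 3.19 (SE 0.72) became 4.63 without replicate T of Δ*PoxKu70*. *POX07451* lay at 30.1, 33.5 and 27.4 FPKM against 5.04, 3.48 and 3.01, with a log2 fold change of 2.91. Every mutant value of these genes lay above every control value, and none of the genes reached the mean mutant level of *POX01566* or *POX09471*.

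The remaining raised sugar transporter genes were already expressed in the control at a mean of 10.6 to 24.6 FPKM. *POX04533* and *POX04529*, whose numbers lie close to each other, went from 10.6 FPKM ± 2.31 to 43.3 ± 3.15 and from 13.1 ± 1.91 to 42.1 ± 8.44 (SD, n = 3), with log2 fold changes of 1.97 and 1.62. *POX06604* went from 24.6 FPKM ± 6.27 to 73.9 ± 5.61, a log2 fold change of 1.53. *POX06426* differed least, at 34.4, 49.6 and 46.97 FPKM in the mutant and 21.1, 20.4 and 19.1 in the control. Its log2 fold change of 1.05 (SE 0.15) lay at the fold minimum and was 0.98 without replicate T of Δ*PoxKu70*, 0.94 without replicate S of Δ*PoxMKK1* and 0.998 without replicate T of Δ*PoxMKK1*, just under the minimum in each case.

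**Figure D1:**
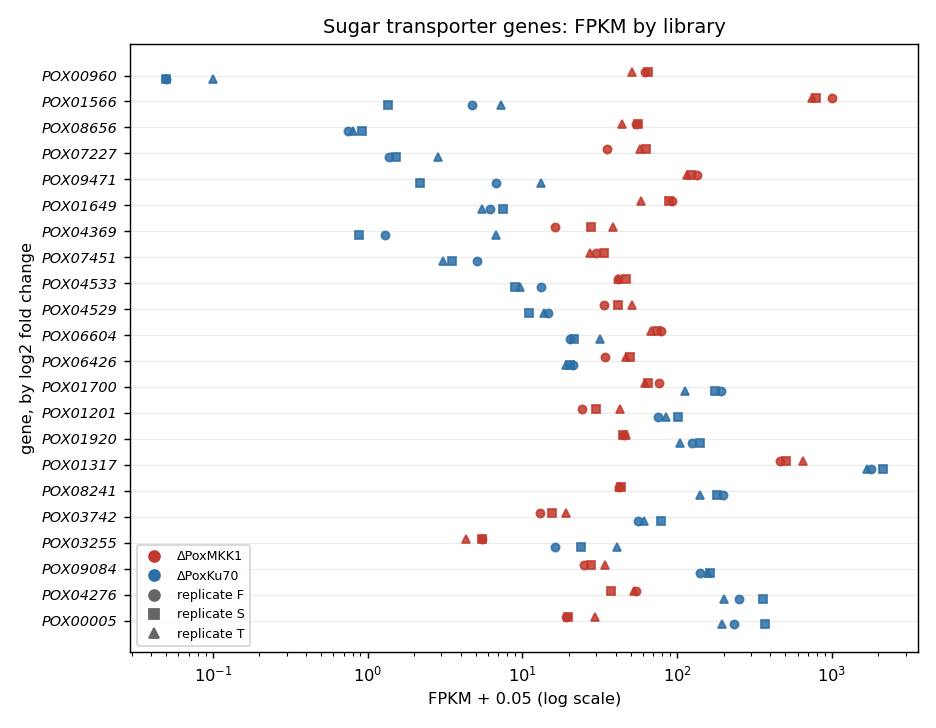
FPKM of the 22 sugar transporter genes in each library, with 0.05 added so that 0 can be drawn on a log axis; colour gives the strain, symbol shape the replicate, and genes are ordered by log2 fold change. The mutant and control symbols do not overlap for any gene, and the control symbols of *POX00960* lie at the left edge with FPKM of 0, 0 and 0.05.

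Of the 10 sugar transporter genes lower in the mutant, *POX01317* had the highest level of the 22 in the control. Its FPKM was 460.9, 501.6 and 649.5 in the mutant and 1777, 2128 and 1691 in the control. This gave a log2 fold change of -1.86 (SE 0.20), with the control 3.63-fold higher. It was still at rank 2 of the 22 in the mutant, after *POX01566*.

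The largest difference among the lowered sugar transporter genes was that of *POX00005*, with 19.2, 19.7 and 29.6 FPKM in the mutant and 234.1, 368.5 and 196.3 in the control, a log2 fold change of -3.61 (SE 0.31). *POX04276* was at 53.9, 37.4 and 52.4 FPKM in the mutant and at 251.3, 356.7 and 199.5 in the control, with a log2 fold change of -2.56 (SE 0.26). Replicate S was the highest and replicate T the lowest control library for both genes. Within the sugar transporter genes *POX00005* stood at rank 3 by mean FPKM in the control and at rank 20 in the mutant, and *POX04276* at rank 2 and rank 10.

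*POX09084* was at 24.8, 27.5 and 34.4 FPKM in the mutant and at 140.5, 164.0 and 158.2 in the control, with a log2 fold change of -2.48 (SE 0.14). *POX03255* was the weakest sugar transporter gene of the mutant, at 5.42, 5.45 and 4.28 FPKM, and its control values of 16.2, 23.8 and 40.8 were less even, with a log2 fold change of -2.47 (SE 0.33). *POX03742* had 13.0, 15.5 and 19.2 FPKM in the mutant and 55.7, 78.3 and 61.2 in the control, with a log2 fold change of -2.10. *POX08241* was the steadiest in the mutant, with 42.0, 43.1 and 42.2 FPKM, and had 196.8, 181.8 and 140.7 in the control, a log2 fold change of -2.09.

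The smallest differences in this set were those of *POX01920*, *POX01201* and *POX01700*, which had mean FPKM of 45.4, 32.3 and 67.8 in the mutant and 123.6, 87.2 and 160.2 in the control. Their log2 fold changes were -1.51, -1.50 and -1.31. In the control all 10 lowered genes ranked above all 12 raised genes by mean FPKM, with *POX03255* at 26.9 FPKM next to the highest raised gene, *POX06604*, at 24.6. The genes were split by direction in these same libraries, so this order follows in part from the split.

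Summed over the 22 sugar transporter genes, the FPKM was 2318 ± 64.3 in Δ*PoxMKK1* and 3287 ± 462 in Δ*PoxKu70* (SD, n = 3). The lowered genes went from 3191 ± 478 in the control to 845.8 ± 119.5 in the mutant and the raised genes from 95.9 ± 16.9 to 1473 ± 133. *POX01317* alone gave 56 to 58.3% of the sugar transporter sum in the control libraries and 19.4 to 27.9% in the mutant libraries. *POX01566* gave 32.1 to 42.0% of the sum in the mutant libraries and 0.0345 to 0.247% in the control libraries. A single gene held the largest part of the sum in each library. The genes were listed for a change in either direction, so a change in composition follows from the listing. The sum is not that of all sugar transporter genes. It leaves out *PoxCdtC*, with a mean FPKM of 1916 in the mutant and 7092 in the control. *PoxCdtD*, at 458.9 and 2104, is left out as well.

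**Figure D2:**
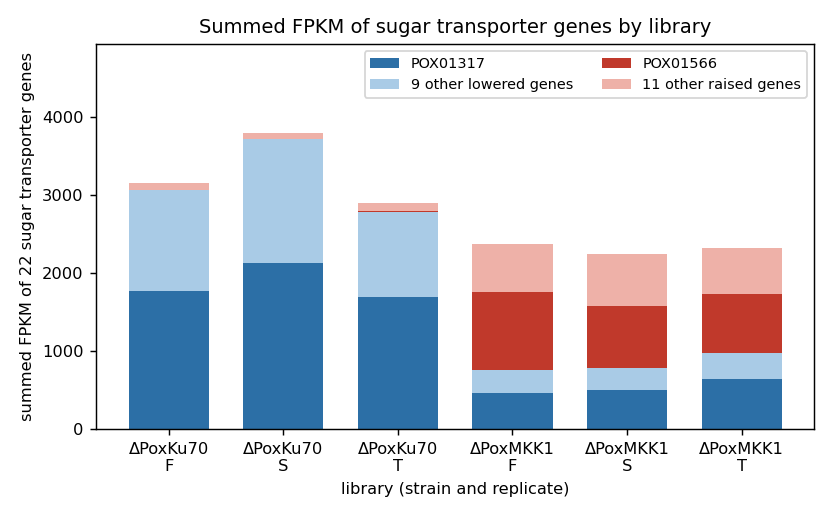
Summed FPKM of the 22 sugar transporter genes in each library, as stacked bars from 0, split into *POX01317*, the other lowered genes, *POX01566* and the other raised genes. *POX01317* makes up 56 to 58.3% of the bar in the control libraries, and *POX01566* makes up 32.1 to 42.0% in the mutant libraries.

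The MFS-only genes are those whose annotation does not point to sugar. Of the 17 that were higher in the mutant, *POX00120* had the highest level, at 705.9, 737.1 and 548.9 FPKM in the mutant and 216.4, 99.5 and 277.0 in the control. Its log2 fold change was 1.69 (SE 0.35). It also carries an entry for drug resistance efflux carriers, the exporters that pump toxic compounds out of the cell. Its 3 mutant values all lay above its highest control value, that of replicate T.

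*POX04916* and *POX02867* were hardly detected in the control. *POX04916* had 115.8, 103.8 and 87.1 FPKM in the mutant and 0.93, 0.43 and 1.21 in the control, a log2 fold change of 6.83 (SE 0.30), or 114-fold. *POX02867* had 16.4, 18.9 and 11.8 FPKM in the mutant and 0.22, 0.18 and 0 in the control, with a log2 fold change of 6.76 (SE 0.47) that was 6.17 without replicate T of Δ*PoxKu70*. *POX04350* followed with 35.9, 56.4 and 39.8 FPKM against 2.07, 2.25 and 2.40, and its log2 fold change was 4.23 (SE 0.22). At 102.2 FPKM ± 14.4 (SD, n = 3) in the mutant, *POX04916* was the only 1 of the 3 to reach a level above 100 FPKM.

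A larger set rose from uneven control levels. *POX04389* was at 157.2, 136.4 and 144.5 FPKM in the mutant and at 20.2, 5.67 and 31.0 in the control, with a log2 fold change of 2.89 (SE 0.53). *POX02473* was at 224.4, 196.0 and 173.9 FPKM in the mutant and at 32.4, 15.97 and 38.4 in the control, with a log2 fold change of 2.72 (SE 0.31). *POX08829* was at 20.5, 18.9 and 18.4 FPKM in the mutant and at 2.74, 0.70 and 6.44 in the control, and its log2 fold change of 2.49 (SE 0.57) became 3.38 without replicate T of Δ*PoxKu70*. For each of these genes replicate S was the lowest and replicate T the highest control library, while the mutant libraries differed less in proportion. *POX07332*, at 171.6, 276.1 and 264.6 FPKM in the mutant and 67.2, 35.8 and 41.5 in the control, had a log2 fold change of 2.24 and a different order, with replicate F highest in the control.

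*POX04560* was the 1 member of the 47 that was not called. It had 83.4, 74.4 and 70.7 FPKM in the mutant and 24.4, 6.62 and 43.5 in the control. The groups did not overlap, but its control values were widely spread, and the log2 fold change of 1.57 had an SE of 0.55. Leaving out control replicate S (log2 fold change 1.12) or control replicate T (2.20) brought the call, as did DESeq2 (1.54) and limma on log2(FPKM + 0.5) (1.95) with all libraries. *POX04478* had the same control pattern, with 74.6, 59.5 and 48.9 FPKM in the mutant and 26.4, 9.19 and 30.5 in the control. Its log2 fold change of 1.41 (SE 0.41) was called with all libraries and not without replicate F or S of Δ*PoxMKK1*, at 1.24 and 1.43.

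The other 7 raised MFS-only genes lay within a narrow band, with log2 fold changes from 1.33 to 1.60. *POX01843* was at 66.5 FPKM ± 15.7 in the mutant and 21.1 ± 9.13 in the control (SD, n = 3), with a log2 fold change of 1.60. *POX01989* had 27.1 FPKM ± 1.54 against 8.85 ± 3.74 and *POX05701* had 44.1 ± 4.55 against 15.2 ± 2.55. *POX06641*, *POX05735*, *POX04681* and *POX05343* had mean levels of 37.6, 31.4, 33.8 and 48.5 FPKM in the mutant and 13.2, 11.6, 12.5 and 18.5 in the control. Their log2 fold changes were 1.45, 1.38, 1.37 and 1.33, and the ranges of the strains did not overlap for any of them.

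Among the 8 MFS-only genes lower in the mutant, *POX09365* stood apart by level and by size of difference. It had 40.9, 108.4 and 97.2 FPKM in the mutant and 1260, 1238 and 912.8 in the control. This gave a log2 fold change of -3.86 (SE 0.40), with the control 14.5-fold higher. In the control its mean of 1137 FPKM was the highest of the MFS-only genes and was at rank 152 of all genes, and in the mutant its rank was 1935.

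*POX03104* was the next most abundant in the control and the most abundant of the lowered MFS-only genes in the mutant. It was at 150.9, 228.3 and 243.6 FPKM in the mutant and 364.2, 592.1 and 601.0 in the control, with a log2 fold change of -1.38 (SE 0.26). *POX04564* was at 18.1, 18.1 and 20.6 FPKM in the mutant and 89.3, 119.7 and 70.0 in the control, with a log2 fold change of -2.36 (SE 0.21). *POX07387* was at 13.3, 9.44 and 16.5 FPKM against 47.2, 59.4 and 52.0, with a log2 fold change of -2.08 (SE 0.20). All 3 control values of each of these genes lay above every mutant value.

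Of the 4 that remain, *POX07052* went from 37.3 FPKM ± 7.199 in the control to 13.0 ± 0.97 in the mutant and *POX00155* from 43.4 ± 17.2 to 17.9 ± 0.81 (SD, n = 3), with log2 fold changes of -1.59 and -1.33. *POX06915* had 36.4, 38.2 and 52.8 FPKM in the mutant and 68.8, 90.6 and 108.1 in the control, with a log2 fold change of -1.13 (SE 0.20). *POX03617* had the smallest difference of the lowered members, with little spread, at 58.0, 53.0 and 61.5 FPKM in the mutant and 111.4, 118.8 and 115.2 in the control. Its log2 fold change was -1.07 (SE 0.09), and limma put it at -0.998, just short of the fold minimum.

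**Figure D3:**
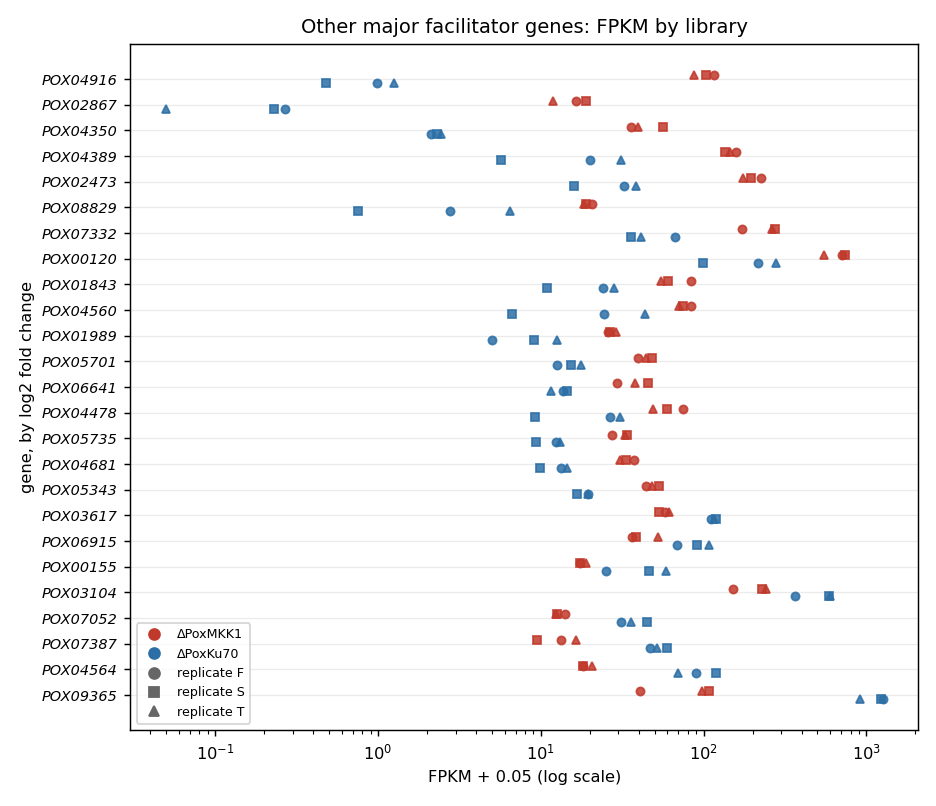
FPKM of the 25 MFS-only genes in each library, with 0.05 added on a log axis; colour gives the strain, symbol shape the replicate, and genes are ordered by log2 fold change. The ranges of the strains do not overlap for any gene, and the control symbols of many raised genes, such as *POX04560* at 24.4, 6.62 and 43.5 FPKM, are spread more widely than those of the mutant.

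Summed over the 25 MFS-only genes, the FPKM was 2305 ± 138.5 in Δ*PoxMKK1* and 2535 ± 41.1 in Δ*PoxKu70* (SD, n = 3). The raised genes went from 447.9 ± 168.3 in the control to 1853 ± 150.6 in the mutant, and the lowered ones from 2087 ± 194.3 to 452.6 ± 91.6. As for the sugar transporter genes, a change in composition follows from how the genes were listed.

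By median size, the differences were larger for the sugar transporter genes in both directions. The median log2 fold change of the raised genes was 3.39 for the 12 sugar transporter genes and 1.60 for the 17 MFS-only genes, and that of the lowered genes was -2.10 and -1.48. Over all tested genes the median was 0.01 and the median absolute value 0.39. A difference of at least 16-fold was found for 5 of the 12 raised sugar transporter genes and 3 of the 17 raised MFS-only genes, and for none of the lowered genes. The lowest of the raised genes had to pass the listing, so these medians describe the listed genes only.

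Levels were set against the median of the tested genes in each strain. The members were split by direction in these same libraries, so opposite shifts follow largely from that split. No such counts are given for all called genes. Of the 29 members higher in the mutant, 3 had a mean FPKM above the median of the tested genes in Δ*PoxKu70* and 25 in Δ*PoxMKK1*. Of the 18 lowered members, 17 were above the median in the control and 10 in the mutant. The medians of all tested genes were 27.0 FPKM in the control and 29.9 in the mutant, so the reference hardly differed. *POX01317* and *POX09365* held the highest control levels of their groups, and *POX01566* and *POX00120* the highest mutant levels.

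**Figure D4:**
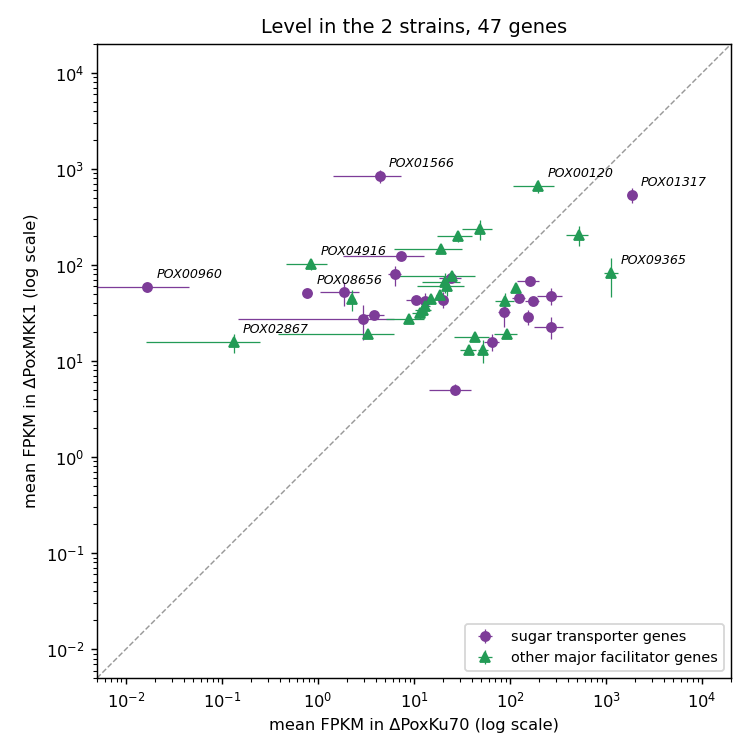
Mean FPKM in Δ*PoxMKK1* against mean FPKM in Δ*PoxKu70* for the 47 genes on log axes, with bars of 1 SD over 3 libraries per strain, lower bars cut short where they would reach 0; the dashed line marks equal levels. *POX01566* lies at 4.39 FPKM in the control and 845.5 in the mutant, far from the line, and *POX01317* at 1865 and 537.4.

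The InterPro entries did not separate raised from lowered sugar transporter genes. Of the 13 genes with all 3 sugar transporter entries, 7 were raised and 6 lowered. Of the 5 with the sugar transporter-like entry alone, 2 were raised and 3 lowered. The remaining combinations were held by 1 or 2 genes each, with *POX01566*, *POX08656* and *POX09471* raised and *POX00005* lowered. Transcript lengths implied by the ratio of counts to FPKM ran from 1273 to 1994 bases over the 47 genes, with a median of 1628, against a median of 1263 and a range from the 10th to the 90th percentile of 402 to 2795 over the tested genes.

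The 3 control libraries differed in the levels of the raised members. Of the 29 members higher in the mutant, 17 had their lowest control value in replicate S of Δ*PoxKu70* and 19 their highest in replicate T. Genes with tied control values were counted under no library, here and over all genes, which leaves out *POX00960*, with its 1 control read in replicate T. This was shared with raised genes in general, since 52.2% of all 947 called raised genes were lowest in replicate S and 55.1% were highest in replicate T. The full order with S lowest, F in the middle and T highest held for 11 of the 17 raised MFS-only genes and 3 of the 12 raised sugar transporter genes, against 39.5% of the called raised genes and 21.6% of the tested genes. It was held by 0 of the 18 lowered members and by 8.19% of the called lowered genes. This order was chosen for counting after the values were seen, and no test was made of it.

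The gene of the conidiation regulator *PoxBrlA*, which switches on spore formation in fungi of this group, had the same order in the control. Its FPKM was 29.4, 5.38 and 42.2 in the control and 460.5, 394.1 and 379.5 in the mutant. The summed FPKM of the 3 conidiation regulators *PoxBrlA*, *PoxAbaA* and *PoxFlbD* was 199.1, 126.5 and 256.3 in the control libraries and 980.3, 996.0 and 915.3 in the mutant libraries, and all 3 genes were called as raised. *PoxFlbD* had the same control order, at 165.4, 117.3 and 210.7 FPKM. *PoxAbaA* did not, at 4.40, 3.88 and 3.32 FPKM, with replicate T lowest, and its small values hardly enter the sum. All 3 regulators were thus higher in the mutant along with the raised transporter genes, while among the control libraries only *PoxBrlA* and *PoxFlbD* followed the order, and their part in the result was not tested. Members that do not share the order include *POX08656*, *POX01649*, *POX07451*, *POX07332* and *POX06426*.

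**Figure D5:**
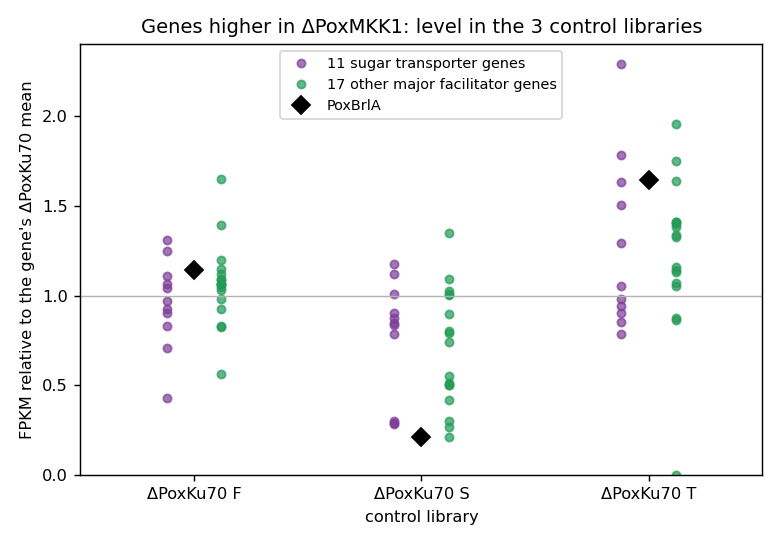
FPKM in the 3 control libraries of each member higher in the mutant, relative to that gene's own control mean, for 28 of the 29 such members (*POX00960*, with 1 count over the control, is left out); the black diamonds are *PoxBrlA*. Replicate S holds most of the low points and replicate T most of the high ones, and *PoxBrlA* at 29.4, 5.38 and 42.2 FPKM in F, S and T lies along them.

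The spread of the replicates was wider in the control for 33 of the 47 members, or 70.2%, by coefficient of variation, against 65.6% of the tested genes. For the raised MFS-only genes the median coefficient of variation was 12.8% in the mutant and 42.3% in the control, and for the raised sugar transporter genes 14.1% and 26.6%. For the lowered members it was 17.8% and 18.7%. Over all tested genes it was 9.29% and 13.0%. No such median is given for all called raised genes. A wide control spread is therefore not shown to be particular to the raised members.

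Several members had a neighbour by gene number that was called in the same direction. Identifiers were taken as the files number them, and whether the numbers follow the genome order was not checked. An adjacent number called the same way was found for 13 of the 29 members higher in the mutant, or 44.8%, against 44.7% of all called raised genes. It was found for 10 of the 18 lowered members, or 55.6%, against 36.9% of all called lowered genes. The difference was not tested.

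Among the lowered sugar transporter genes, some of these neighbours encode carbohydrate-active enzymes. *POX00006* next to *POX00005* is in glycoside hydrolase family GH43, which holds enzymes that act on xylan and arabinan side chains, and had a log2 fold change of -1.59. *POX09085* next to *POX09084* is annotated with a cellulose-binding module and with α-galactosidase families, and had a log2 fold change of -3.75, with a mean FPKM of 8.06 in the mutant and 103.2 in the control. *POX03742* lies between *POX03741*, of the amylase family GH13, at -1.34, and *POX03743*, which went the other way at 10.24. *POX08242* next to *POX08241* has no such annotation and had 364.0 FPKM in the mutant and 1394 in the control.

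Raised members had called neighbours as well. *POX09471* lies between *POX09470* at a log2 fold change of 2.86 and *POX09472* at 2.15, both abundant in the mutant, with mean levels of 537.2 and 526.2 FPKM. *POX04560* lies between *POX04559* at 2.00 and *POX04561* at 2.34, and *POX08829* between *POX08828* at 2.45 and *POX08830* at 1.34. *POX02474* beside *POX02473* had a log2 fold change of 2.59, close to the 2.72 of the transporter gene. *POX04389* is flanked by *POX04388* at 1.72 and by *POX04390*, a gene of glucanosyltransferase family GH72, at -1.52. *POX05700* next to *POX05701* also encodes a carbohydrate-active enzyme, of family CE9, and was called in the same direction, at 1.05.

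Some genes for cellulose breakdown and cellodextrin uptake were lowered alongside the lowered members. The study names 8 cellobiohydrolase and endoglucanase genes, which encode enzymes that cut cellulose, among its downregulated genes. All 8 were called as lowered here, with a median log2 fold change of -1.79. They were chosen from genes reported as lowered in these libraries, so nothing is read from that count. The cellulase activator genes *PoxClrB* and *PoxCxrB* were lowered as well, with log2 fold changes of -1.40 and -1.97. *PoxCdtC* and *PoxCdtD*, which encode cellodextrin transporters, had a mean FPKM of 1916 and 458.9 in the mutant and 7092 and 2104 in the control. The glucose sensor gene *PoxRCO-3* was higher in the mutant, at 105.6, 194.4 and 220.9 FPKM against 3.58, 2.92 and 26.3. *PoxCdtC* thus exceeded *POX01317* by level in both strains. These genes share both the libraries and the listing with the members, and are shown side by side only.

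Transporters of other families in the study's list moved in both directions too. Of 20 genes for amino acid, oligopeptide, ABC-type and water or polyol transport, 11 were called as raised, 8 as lowered and 1, *POX01082*, was not called. Over all tested genes, 10.8% were called as raised and 8.93% as lowered. The aquaporin-type gene *POX08824* had 39.5, 40.1 and 41.3 FPKM in the mutant and 0.70, 0.85 and 0.36 in the control. The amino acid permease gene *POX08456* had the second highest mutant level of these, at 331.2 FPKM ± 19.0 against 87.4 ± 11.9 (SD, n = 3), after the ABC-2 type gene *POX09169* at 360.1 ± 31.5 against 67.4 ± 20.4. On the lowered side, the amino acid transporter gene *POX04606* was at 36.5 FPKM ± 4.94 in the mutant and 235.0 ± 30.8 in the control. These genes too were listed for a change in either direction in these same libraries. Increases beside decreases follow from that listing, so nothing is read from the counts.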

How the data were processed

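The authors deposited, for 9834 genes in each of 6 libraries, an expected count, an estimated read number that is not normalized, and an FPKM value, normalized by the authors for length and depth. Libraries were made from oligo(dT)-selected mRNA, sequenced on a BGISEQ-500 platform and aligned to the HP7-1 genome. The submitters' processing notes name BWA 0.7.10-r789, Bowtie2 2.1.0, RSEM 1.2.12 and DESeq2, without their roles. Whether counting used strand is not given in the sources used here, so overlapping genes are uncertain.

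Members were taken from the study's list by their InterPro entries. The members, the reference lists and the tests were chosen with earlier results of these data known. Differential expression was computed from rounded expected counts by edgeR's quasi-likelihood test (version 4.0.16, R version 4.3.3), after TMM normalization and the filterByExpr filter, with strain as the only term and Benjamini-Hochberg adjustment over 8749 genes. The adjusted p replaces the study's probability criterion. Alternatives were limma 3.58.1 on log2(FPKM + 0.5) at a mean FPKM of at least 1, DESeq2 1.42.0, DESeq2 size factors, no filter, a replicate block, each library left out, adjusted p below 0.01, no fold minimum, and the fold minimum on the ratio of mean FPKM, with 0 set to 0.01. On simulated counts edgeR called 196 of 200 genes changed 4-fold and 11 unchanged genes of 8693 tested. No smaller change and no larger number of changed genes was simulated, so genes near the fold minimum are not covered. Intervals used scipy 1.17.1, tables pandas 2.3.3 with numpy 2.4.6, and plots matplotlib 3.10.9, under Python 3.11.15.

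Within each group the genes named in full were the 5 largest rises and falls, the 3 highest levels per strain, every member not called, every member with at most 3 counts in a strain, and the members nearest to the listing's fold limit; the others are given by value, and neighbours were named after their values were seen. Depth was 13687087 to 14042791 expected counts per library. None of the file identifiers matched the RefSeq gene table, so no positions or sequences are given.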

Additional observations from a re-analysis of the deposited data

How the results depend on the processing

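Of 564 recalculated values for single members, 553 kept direction and call, 5 gained the call, 6 lost it and 0 changed sign. The members were listed for a change in these same libraries, so kept directions and calls follow largely from the listing. No such share is given for all called genes. The gained and lost calls among these values were those of *POX04560*, *POX04478*, *POX06426* and *POX03617*. The values leave out the 2 settings that change only the criterion, adjusted p below 0.01 and no fold minimum. At adjusted p below 0.01, *POX04369*, *POX08829* and *POX04478* lost the call. Their adjusted p by edgeR's quasi-likelihood test was 0.0103, 0.0111 and 0.0273. The sugar transporter genes called numbered 21 or 22 and the MFS-only genes 22 to 25 over all alternatives. The count of all genes called was 1728, from 1573 to 1865 with each library left out, and 4044 without a fold minimum. It is not known whether the replicate letters pair the libraries. The correlations of deviations between libraries of the same letter were 0.336, 0.032 and 0.127 for F, S and T. Replicates F and S of Δ*PoxMKK1* correlated best with the control library of the same letter, for S only narrowly (0.022 with F). Replicate T of Δ*PoxMKK1* correlated best with replicate S of Δ*PoxKu70*, at 0.173. With the replicate block, 1739 genes were called, with 22 sugar transporter and 25 MFS-only genes among them, and *POX04560* stood at 1.86. Depth limits the ratio of *POX00960*, which rests on 1 control count.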
